A study of Rattus norvegicus with 9 samples.

Results

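Kidneys of rats given colistin methanesulfonate (CMS, which the body turns into the antibiotic colistin) at 25 mg/kg a day were compared with kidneys of rats given vehicle. The comparison uses 6 of the 9 arrays of the study, the 3 titled with the 25 mg/kg dose and the 3 titled with 0 mg/kg, and every probe set annotated to exactly 1 gene. All animals were Sprague–Dawley rats, an outbred stock, bought at 8 weeks of age, kept for 1 week on a 12-hour light and dark cycle and injected into the peritoneum each day for 7 days. The vehicle was saline, in which the drug was also dissolved. Per the labels, kidneys of the vehicle group had no lesion, those of the 25 mg/kg group had basophilic and dilated tubules, and those of a further group at 50 mg/kg had necrosis, degenerated and dilated tubules and eosinophilic casts. Each array carried RNA of the right kidney of 1 rat, so the groups hold 3 rats each. Sex, the hour of collection and the time since the last injection are not given in the sources used here. The question was which changes in the renal transcriptome the lower dose, with its milder lesion, brought about and which sizes of change the arrays leave out.

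Colistin, a polymyxin, is filtered at the glomerulus and taken back up by proximal tubule cells, which it injures. The uptake uses the scavenging receptors megalin (Lrp2) and cubilin (Cubn), the peptide transporter PEPT2 (Slc15a2) and the carnitine transporter OCTN2 (Slc22a5). Injured tubule cells switch on genes such as Havcr1 (kidney injury molecule 1), Lcn2 (the iron-siderophore binding protein NGAL) and Clu (the secreted chaperone clusterin), and lose transcripts of their transport functions.

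The arrays measured 31042 probe sets that are not controls, of which 20826 were annotated to 1 gene, for 14217 genes. A gene was tested where its brightest probe set averaged at least 5 on the log2 intensity scale over the 9 arrays, which left 10337 genes. All values below are log2 intensities, and a difference of 1 is 2-fold. The kidney's own markers were present in all 6 arrays: Slc34a1, the phosphate transporter of the proximal tubule, lay between 13.70 and 13.94, and Umod, uromodulin of the thick ascending limb, between 13.59 and 13.82. Nphs1, nephrin of the podocyte, lay between 6.92 and 8.11. Slc12a3, of the distal convoluted tubule, read 10.34 in 25 mg/kg replicate 2 and 8.83 to 9.82 in the other arrays. Aqp2, of the collecting duct, read 11.73 in the same array and 10.60 to 11.21 in the others. That array was also the highest for 3 of 7 blood markers, though for none by over 1 log2 unit.

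Among the 6 arrays, a pair stood apart by transcripts of other tissues. Vehicle replicate 1 was the highest of the 6 for 8 of 10 liver markers and exceeded each of the other 5 by over 1 log2 unit for 7 of them. Alb, serum albumin, read 10.48 there and 3.85 to 5.29 in the other 5 arrays, and Apoa2, an apolipoprotein of high-density lipoprotein, read 6.88 against 3.86 to 4.40. CMS 25 mg/kg replicate 1 was the highest for 9 of 12 adipose markers present on the array and exceeded the other 5 by over 1 log2 unit for 7 of them. Car3, the carbonic anhydrase of fat and muscle, read 10.52 there and 3.35 to 5.26 in the other 5. Plin1, the lipid droplet coat protein perilipin, read 6.52 against 3.43 to 3.56. The same array was the highest for 4 of 9 urothelial markers and exceeded the other 5 arrays by over 1 log2 unit for 2. None of the 9 averaged at least 5 over all arrays of the study. The urothelial protein Upk3a, 1 of the 2, read 6.14 in that array and 4.41 to 5.04 in the others. The log2 of the summed intensity of the liver list ran from 9.24 to 11.76 in the vehicle arrays and from 10.04 to 11.18 in the 25 mg/kg arrays. In 25 mg/kg replicate 1, where the sum was 11.18, the member Cyp2c11 alone read 10.97 and Alb read 4.36. The mean log2 value of the liver list was 7.48 in vehicle replicate 1, 4.99 and 4.77 in replicates 2 and 3, and 5.20 to 5.40 in treated arrays. The log2 sum for the adipose list ran from 11.21 to 11.66 in vehicle and from 11.07 to 12.66 in treated arrays. The part of these transcripts in the differences below was not tested, but several results that rest on those arrays are given with and without them. For others, such as Slc15a1, Gatm, Col3a1 and Fam111a, only the values of the single arrays are given.

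No gene differed between the 25 mg/kg and vehicle kidneys at an adjusted p under 0.05 (limma, Benjamini-Hochberg adjustment over 10337 genes). The called share was 0 percent, and the smallest adjusted p was 0.523, shared by 11 genes. At an unadjusted p under 0.05 there were 604 genes, or 5.84% of those tested, 224 with the higher mean in treated kidneys and 380 with the lower. This split depended on scaling: the lower share was 62.9% as deposited, 35.3% with each array centred on its median, 46.7% after a renewed quantile normalisation of the 6 arrays and 47.4% after cyclic loess. In the same fit, 3211 genes (31.1%) were called for 50 mg/kg against the same vehicle arrays, and 3128 (30.3%) for 50 mg/kg against 25 mg/kg.

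The intervals were narrow enough to bound most genes. The median 95% interval reached 0.27 log2 units to either side of the difference, a factor of 1.20. A pair of one-sided tests of each difference was adjusted over all genes. The tests placed 10107 genes (97.8%) within a 2-fold change in either direction and 8964 (86.7%) within 1.5-fold. Each was one-sided at an adjusted p under 0.05, so a gene could pass although its 95% interval reached slightly past the bound. The other 230 genes (2.23%) were not shown to be within 2-fold. Of these, 210 had a difference under 1 in size. Differences of at least 1 log2 unit were seen for 20 genes, 8 higher and 12 lower in treated kidneys, none of them called.

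A panel of 29 measured genes of tubular injury and nephron function was followed gene by gene. None was called, the median difference over the 29 was -0.07 (-0.02 over all genes tested), 22 of the 29 were within 2-fold and 10 within 1.5-fold, where 97.8% and 86.7% of all genes were. At 50 mg/kg 20 of the 29 were called against vehicle (31.1% of all genes). The median within-group SD of the 29 was 0.235 in vehicle, 0.268 at 25 mg/kg and 0.612 at 50 mg/kg, and the 9-array fit pools the spread of all 3 groups. With only the 6 arrays of the comparison fitted, 25 of the 29 were within 2-fold (98% of all genes). Havcr1, Gpnmb, Fgb, Hmox1 and Mki67 entered the test only through their level at 50 mg/kg, since their mean over the 6 arrays was under 5. Of the other 24 panel genes 19 were within 2-fold and 15 were called at 50 mg/kg.

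**Figure D1:**
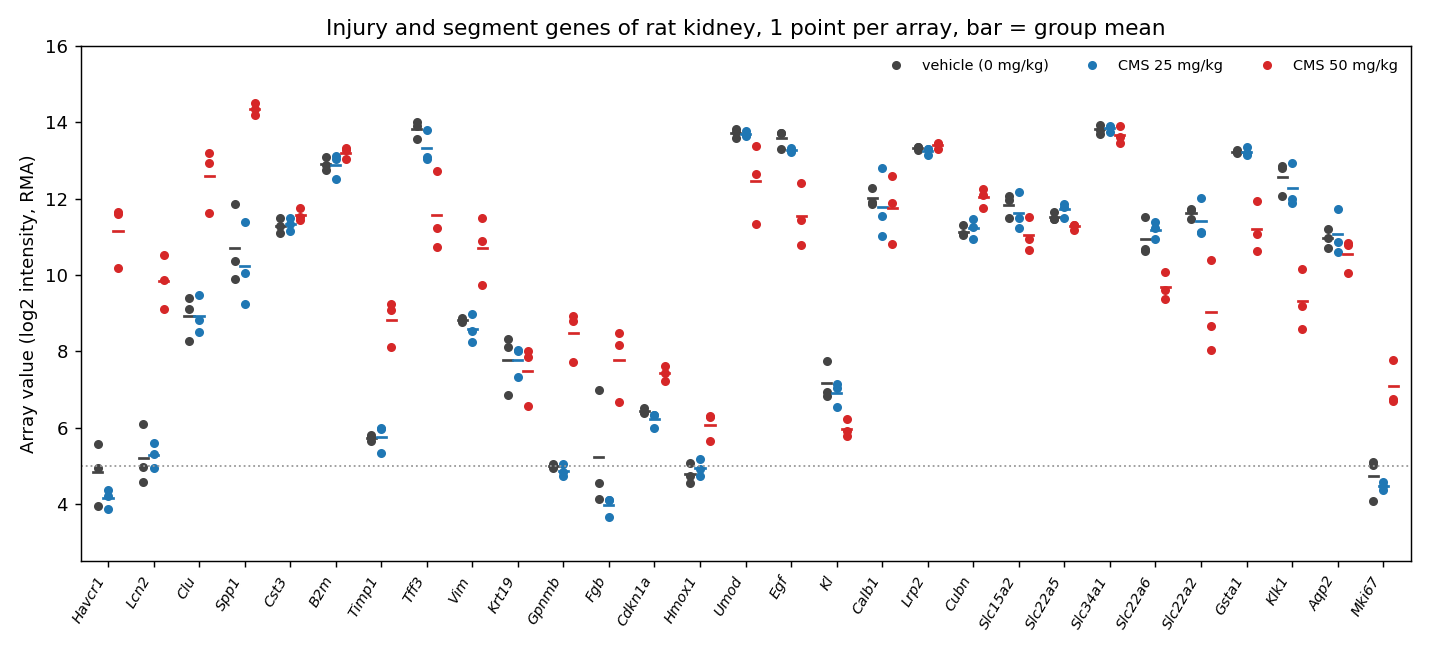
Log2 intensity of 29 panel genes in each array, with vehicle in grey, CMS 25 mg/kg in blue and CMS 50 mg/kg in red. Points are single arrays (1 rat each, 3 per group), short bars are group means and the dotted line is the minimum mean of 5. The blue points of Havcr1, at 3.87 to 4.38, lie among or below the grey ones, while the red ones lie between 10.18 and 11.66.

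Havcr1 is a widely used marker of proximal tubule injury. It read 3.96, 5.58 and 4.95 in vehicle replicates 1 to 3 and 4.20, 4.38 and 3.87 in the 25 mg/kg replicates. The groups overlapped, and the lowest value was that of treated replicate 3. The difference was -0.68 (95% interval -1.72 to 0.36), and it was not shown to be within 2-fold. At 50 mg/kg the log2 difference of Havcr1 from vehicle was 6.32. Since both compared groups averaged under the minimum of 5, these intensity differences can understate a change in transcript level.

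Lcn2 read 4.57, 6.10 and 4.98 in vehicle arrays and 5.60, 4.95 and 5.30 in the 25 mg/kg arrays, and the groups overlapped. Its difference of 0.07 (-0.89 to 1.03) was within 2-fold (adjusted p = 0.029). Clu read 8.26, 9.39 and 9.11 against 8.82, 9.48 and 8.51, a difference of 0.01 (-0.97 to 1.00) that was also within 2-fold (adjusted p = 0.026). For both the result is an upper bound near 2-fold, set by the rat-to-rat spread in each group. At 50 mg/kg Lcn2 was 24.5-fold and Clu 12.7-fold above vehicle.

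Timp1, an inhibitor of matrix metalloproteinases, was bounded more tightly. It read 5.76, 5.65 and 5.82 in vehicle arrays and 5.97, 5.99 and 5.35 in treated ones, a difference of 0.02 (-0.61 to 0.66; -0.39 to 0.44 with 6 arrays), and it was within 1.5-fold (adjusted p = 0.044). Gpnmb, a glycoprotein of injured epithelium and macrophages, read 4.99, 5.04 and 4.94 against 5.05, 4.74 and 4.84, a difference of -0.11 (-0.72 to 0.49). All 6 Gpnmb values lay within a narrow band, against 7.72 to 8.94 at 50 mg/kg. Both compared groups averaged under the minimum of 5 (4.99 and 4.88), so the band bounds the intensity and not the transcript level.

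Spp1, the secreted phosphoprotein osteopontin, was bounded only loosely. It read 10.36, 11.86 and 9.89 in vehicle arrays and 11.38, 9.25 and 10.06 in treated ones, and its interval ran from -1.76 to 0.82. Tff3, a mucosal repair peptide, read 13.56, 13.91 and 14.02 against 13.04, 13.10 and 13.81, a difference of -0.51 (-1.50 to 0.48). Tff3 was within 2-fold only in the fit of 6 arrays (adjusted p = 0.033). Fgb, the fibrinogen beta chain, is made by liver and by injured tubules. It read 6.98, 4.55 and 4.14 in vehicle arrays and 4.12, 4.12 and 3.66 in treated ones, and the high value was that of the array with liver transcripts. Its difference of -1.26 became -0.38 without that array.

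Cdkn1a, the p53-dependent cell cycle inhibitor p21, read 6.50, 6.41 and 6.40 in vehicle and 6.33, 6.01 and 6.33 in treated arrays. All 3 treated values lay below all 3 vehicle values, the difference was -0.22 (-0.50 to 0.07) and it was within 1.5-fold (adjusted p = 0.012). Among all genes tested the groups did not overlap for 12.1%. Hmox1, the haem-degrading enzyme of the oxidative stress response, differed by 0.15 (-0.30 to 0.61) and Mki67, a nuclear protein of dividing cells, by -0.26 (-1.0 to 0.48). Both averaged under the minimum of 5 in both groups, so that these intervals bound the intensity and not the transcript level. Cst3 (cystatin C) and B2m (beta-2 microglobulin), whose proteins are read in urine and plasma as signs of tubular or filtration failure, were both within 1.5-fold. Their differences were 0.05 (-0.25 to 0.35) for Cst3 and -0.03 (-0.40 to 0.34) for B2m.

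**Figure D2:**
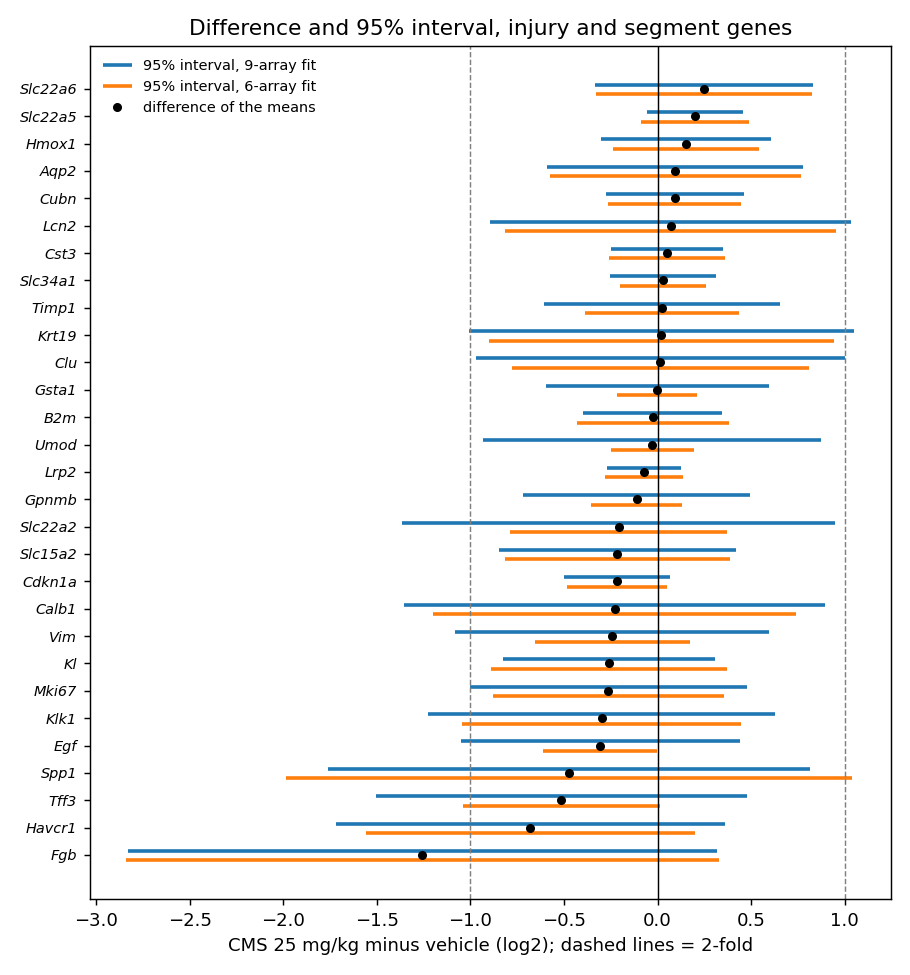
CMS 25 mg/kg minus vehicle (log2) for 29 panel genes, with the 95% interval from the fit of all 9 arrays (blue) and of the 6 arrays compared (orange); dashed lines mark 2-fold. Umod, Gsta1 and Gpnmb have much shorter intervals with 6 arrays, and Fgb and Spp1 have wide ones in both fits.

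The wider list of 40 tubular injury genes had 34 measured members. None had an unadjusted p under 0.05 (background 5.84%), and their median difference was -0.04. Within 2-fold were 29 (97.8% of all genes), and the other 5 were Havcr1, Spp1, Vcam1, Fgb and Tff3. Within 1.5-fold were 15 of the 34, against 86.7% of all genes. Leaving out both arrays with transcripts of other tissues moved the median of the list to -0.19, with 22 of the 34 within 2-fold. Of the 29 members that averaged at least 5 over the 6 arrays, 26 were within 2-fold at 25 mg/kg and 20 were called higher at 50 mg/kg, where 19.6% of all genes were.

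Of 11 measured genes of colistin uptake and binding 8 were within 2-fold and 6 within 1.5-fold. Both shares were smaller than the 97.8% and 86.7% of all genes. Not shown to be within 2-fold were Slc15a1, Slco1a1 and Slc22a2. With only the 6 arrays fitted, 10 of the 11 were within 2-fold (98% of all genes). Slco1a1 was then among them (adjusted p = 0.0040, 2 one-sided tests), and Slc15a1 was not (adjusted p = 0.446). Lrp2 read 13.35, 13.35 and 13.27 in vehicle arrays and 13.31, 13.14 and 13.30 in treated ones. Its difference of -0.07 (-0.27 to 0.12) leaves room for a fall of at most 1.20-fold and a rise of at most 1.09-fold at the 95% level. Cubn read 11.04, 11.07 and 11.30 against 11.48, 10.95 and 11.26, a difference of 0.09 (-0.28 to 0.46). Both were within 1.5-fold, and their groups overlapped.

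Slc22a5 read 11.65, 11.46 and 11.45 in vehicle and 11.79, 11.87 and 11.49 in treated arrays, a difference of 0.20 (-0.06 to 0.46) that was within 1.5-fold (adjusted p = 0.0064). Slc15a2 read 11.50, 12.06 and 11.97 against 11.49, 11.23 and 12.17, a difference of -0.21 (-0.85 to 0.42) that was within 2-fold (adjusted p = 0.011) but not within 1.5-fold. The related low-affinity peptide transporter PEPT1, Slc15a1, had the largest difference of the uptake list. It read 6.78, 5.43 and 5.40 in vehicle and 7.33, 6.77 and 6.32 in treated arrays, so that the groups overlapped through vehicle replicate 1. The difference of 0.94 (0.10 to 1.78) had an adjusted p of 0.792, and it was the 1 member of 11 with an unadjusted p under 0.05.

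Other transporters and enzymes of the proximal tubule followed. Gsta1, a glutathione S-transferase, read 13.20, 13.22 and 13.27 in vehicle and 13.35, 13.13 and 13.20 in treated arrays. Its 6-array interval was -0.22 to 0.21, against -0.60 to 0.59 from 9 arrays, and at 50 mg/kg Gsta1 was at 0.247 times vehicle. Slc34a1 differed by 0.03 (-0.25 to 0.31) and was within 1.5-fold. The organic anion transporter Slc22a6 differed by 0.25 (-0.33 to 0.83). The organic cation transporter Slc22a2 read 11.46, 11.72 and 11.69 against 11.10, 11.12 and 12.03, a difference of -0.21 (-1.37 to 0.95), and it was within 2-fold only with 6 arrays (adjusted p = 0.0076).

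Of 61 measured proximal tubule genes, 48 were within 2-fold and 33 within 1.5-fold, against 97.8% and 86.7% of all genes. At an unadjusted p under 0.05, 3 were higher and 1 lower (2.17% and 3.68% of all genes), and the median was 0.05; 35 means were higher, where 43.5% of all genes had the higher mean. The lower one was Gatm, the arginine:glycine amidinotransferase of creatine synthesis, chosen for mention after its values were seen. Gatm read 13.12, 12.90 and 12.98 in vehicle arrays and 12.96, 12.12 and 11.83 in treated ones. The values of treated replicates 2 and 3 were low and that of replicate 1 was among the vehicle values, and the difference of -0.70 (-1.28 to -0.12) had an adjusted p of 0.792.

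Downstream segments gave a similar account. Umod read 13.59, 13.74 and 13.82 in vehicle and 13.66, 13.65 and 13.76 in treated arrays, a difference of -0.03 (-0.93 to 0.87; -0.25 to 0.19 with 6 arrays). Egf, the growth factor made in the distal convoluted tubule and thick ascending limb, read 13.72, 13.31 and 13.71 against 13.34, 13.27 and 13.21. A treated Egf value exceeded the lowest vehicle value, and the difference was -0.31 (-1.05 to 0.44). Kl, the phosphate-regulating co-receptor klotho, differed by -0.26 (-0.83 to 0.31). Aqp2, the water channel of the collecting duct, differed by 0.10 (-0.59 to 0.78), and all 4 of these genes were within 2-fold.

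Calb1, the calcium-binding protein of the distal tubule, and Klk1, tissue kallikrein, were not shown to be within 2-fold with all groups fitted. Fitting only the 6 arrays of the comparison placed Klk1 within 2-fold (adjusted p = 0.032, one-sided tests). Calb1 was not placed within 2-fold by that fit either (adjusted p = 0.052, one-sided tests). Calb1 read 12.28, 11.91 and 11.86 in vehicle and 11.54, 12.80 and 11.01 in treated arrays. The treated Calb1 values spread over both sides of the vehicle range, and the interval was -1.36 to 0.90. Klk1 read 12.80, 12.07 and 12.86 against 12.00, 12.93 and 11.90, with an interval of -1.23 to 0.63. Klk1 belongs to a family of near-identical copies in the rat, and its probe set may read several of them.

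Among 26 measured genes of the thick ascending limb and distal convoluted tubule, 21 means were lower in treated kidneys, where 56.5% of all genes tested had the lower mean, and the median was -0.11. The member with the largest difference was S100g, calbindin-D9k, a vitamin D-dependent calcium-binding protein. S100g read 5.97, 6.88 and 6.70 in vehicle arrays and 7.31, 7.51 and 7.70 in treated ones. All treated values lay above all vehicle values, as for 4.45% of all genes, and the difference of 0.99 (0.31 to 1.67) had an adjusted p of 0.751.

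**Figure D3:**
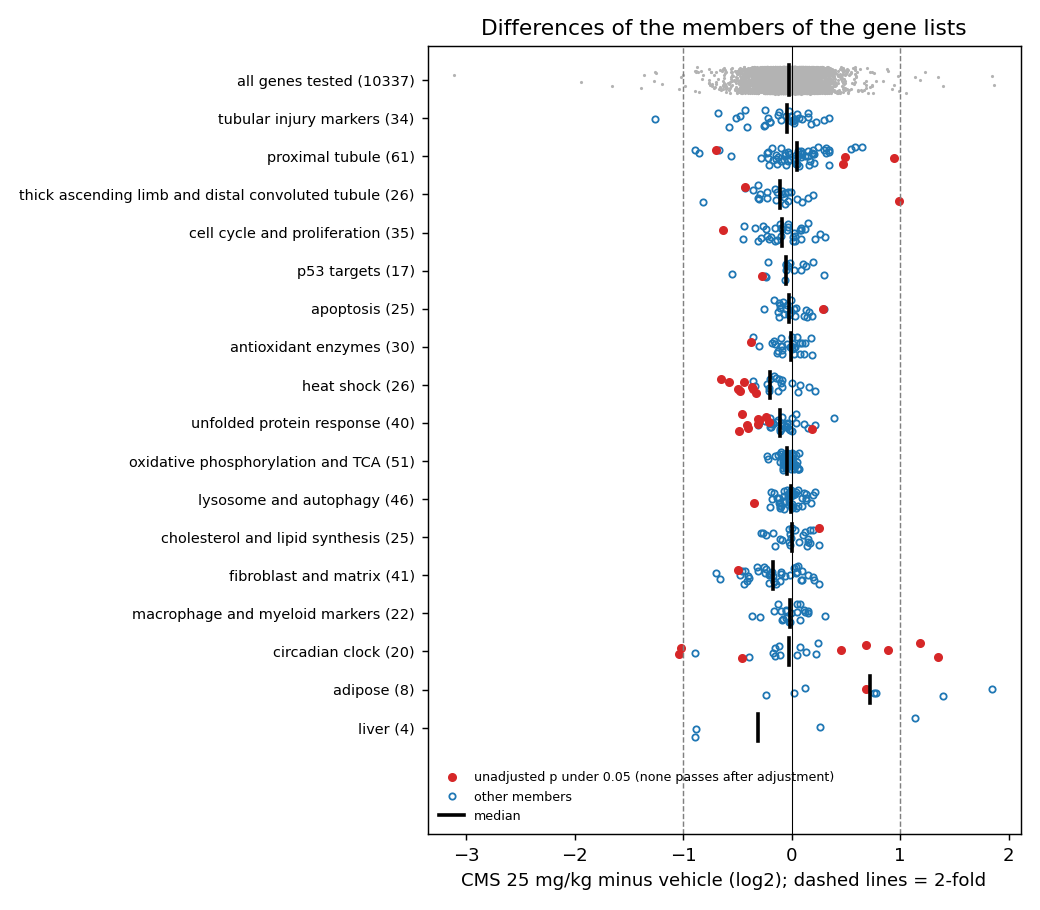
CMS 25 mg/kg minus vehicle (log2) of each measured member of 17 gene lists and of all 10337 genes tested; black bars are medians and filled red points have an unadjusted p under 0.05. Oxidative phosphorylation genes lie between -0.23 and 0.07, while heat shock genes lie mostly left of 0 and clock genes fall on both sides, out to 1.35 and -1.04.

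Proliferation, macrophage and matrix genes had no called member at 25 mg/kg. Of 35 measured cell cycle genes 33 were within 2-fold and 25 within 1.5-fold (97.8% and 86.7% of all genes). Their median was -0.09. Of the 31 that averaged at least 5 over the 6 arrays, 29 were within 2-fold and 23 were called higher at 50 mg/kg, where 19.6% of all genes were. Ect2, a regulator of cytokinesis, was the 1 member with an unadjusted p under 0.05. It read 6.25, 6.09 and 5.60 in vehicle and 5.15, 5.39 and 5.50 in treated arrays, a difference of -0.64 (-1.12 to -0.15) with an adjusted p of 0.778. The 22 macrophage and myeloid genes had a median of -0.02. Of these, 20 were within 2-fold and 16 within 1.5-fold (97.8% and 86.7% of all genes). In bulk kidney, fewer cells of a type and less RNA per cell cannot be told apart.

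The 41 fibroblast and matrix genes had a median of -0.17, and 29 of the 41 means were lower in treated kidneys (56.5% of all genes). Within 2-fold were 33 of the 41 and within 1.5-fold 13, against 97.8% and 86.7% of all genes. This median moved to -0.35 without the 25 mg/kg array that carried adipose transcripts and to -0.05 without 25 mg/kg replicate 3. Col3a1, a fibrillar collagen, read 8.34, 7.98 and 7.75 in vehicle and 8.62, 6.82 and 6.55 in treated arrays. The high treated value was that of the same array, and the interval of -1.96 to 0.57 did not place Col3a1 within 2-fold.

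Ubd, whose ubiquitin-like product FAT10 marks proteins for the proteasome, had the highest difference of all genes tested, 1.86. It read 4.32, 7.40 and 4.09 in vehicle arrays and 6.83, 8.01 and 6.56 in treated ones, and 9.64 to 11.67 at 50 mg/kg. Vehicle replicate 2 lay among the treated values, and the interval of -0.11 to 3.83 included 0. C3, the central complement component, read 7.60, 6.10 and 5.76 in vehicle and 5.39, 5.59 and 5.47 in treated arrays. The highest C3 value was that of the array with liver transcripts, and the difference of -1.0 (adjusted p = 0.802) became -0.45 without it. Ubd and C3 were singled out after their values were seen.

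All 51 measured genes of oxidative phosphorylation and the citric acid cycle were within 1.5-fold, against 86.7% of all genes, with differences between -0.23 (Ndufb8, a complex I subunit) and 0.07 (Dlst, a subunit of the 2-oxoglutarate dehydrogenase complex). At 50 mg/kg 16 of the 51 were called lower (11.4% of all genes). All 33 measured genes of cytosolic ribosomal proteins and ribosome assembly were within 1.5-fold as well. Within 2-fold were all 46 lysosome and autophagy genes, all 30 antioxidant enzyme genes, all 25 apoptosis genes and all 25 genes of cholesterol and lipid synthesis, where 97.8% of all genes were. Within 1.5-fold were 41 of the 46, 25 of the 30, 22 of the 25 and 20 of the 25, in the same order, against 86.7% of all genes. Of 10 housekeeping reference genes 10 were within 2-fold and 8 within 1.5-fold. At 50 mg/kg 21 of the 46 lysosome genes were called higher (19.6% of all genes), and 20 of the 45 that averaged at least 5 over the 6 arrays.

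Genes of the heat shock list, among them chaperones that fold proteins and are switched on by heat shock factor 1, held a larger share of low values. Of 26 measured members, 21 had the lower mean in treated kidneys (background 56.5%), 8 were lower and none higher at an unadjusted p under 0.05 (background 3.68% lower), and the treated arrays lay below all vehicle arrays for 10 (background 7.65%). None was called. The median was -0.20, and over the alternatives it ran from -0.27 to -0.14. All 26 were within 2-fold and 17 within 1.5-fold (97.8% and 86.7% of all genes). This list and that of the unfolded protein response below were chosen with earlier results of these data known. The genes named next were chosen after their values were seen.

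Hsph1, a nucleotide exchange factor of the HSP70 machine, read 10.08, 9.66 and 10.06 in vehicle and 9.41, 9.30 and 9.14 in treated arrays. The groups did not overlap, and the difference was -0.65 (-0.95 to -0.35; adjusted p = 0.647). Chordc1, a co-chaperone of HSP90, read 9.53, 9.29 and 9.38 against 8.91, 8.84 and 8.74, a difference of -0.57 (-0.80 to -0.35; adjusted p = 0.523). Dnajb1, an HSP40 co-chaperone, read 8.98, 9.07 and 9.08 against 8.59, 8.69 and 8.53, a difference of -0.44 (-0.63 to -0.25; adjusted p = 0.523). The constitutive HSP90 gene Hsp90ab1 read 11.68, 11.39 and 11.64 against 11.12, 11.12 and 11.04, a difference of -0.47 (-0.72 to -0.23; adjusted p = 0.75). In these 4 genes every treated rat lay below every vehicle rat. Beside them at 50 mg/kg, Hsph1 differed from the same vehicle arrays by -1.05 and Hsp90ab1 by -0.01.

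Genes of the unfolded protein response, which serves folding in the endoplasmic reticulum, had 31 of 40 means lower in treated kidneys (56.5% of all genes) and a median of -0.11. Within 2-fold were all 40 and within 1.5-fold 32, against 97.8% and 86.7% of all genes. At an unadjusted p under 0.05, 9 were lower and 1 higher (3.68% and 2.17% of all genes). The 9 became 5 without vehicle replicate 3. Hspa5, the HSP70 of the endoplasmic reticulum known as BiP, read 11.72, 11.63 and 11.90 in vehicle and 11.19, 11.27 and 11.42 in treated arrays, a difference of -0.46 (-0.71 to -0.21; adjusted p = 0.751). Its neighbour in function Hyou1, an exchange factor for BiP, differed by -0.48 (-0.81 to -0.16) and the stress-induced transcription factor Ddit3 (CHOP) by -0.41 (-0.71 to -0.11). The higher one, P4hb, protein disulfide isomerase, differed by 0.19 (0.00 to 0.38).

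Cirbp, a cold-inducible RNA-binding protein, had the smallest p of all genes. It read 7.76, 8.07 and 7.99 in vehicle and 8.60, 8.58 and 8.62 in treated arrays. The 3 treated values lay within 0.05 of each other and above all vehicle values, and the difference was 0.67 (0.45 to 0.89; adjusted p = 0.523). At 50 mg/kg the Cirbp difference from vehicle was 1.14. The 3′ minus 5′ signal of the beta-actin control probe sets, a measure of RNA integrity in which a higher value means less full-length cDNA, was 2.98 ± 0.16 (SD, n = 3) in vehicle and 3.17 ± 0.12 (SD, n = 3) in treated kidneys. The difference of 0.20 had a two-sided exact permutation p of 0.3, where 0.1 is the smallest that 3 against 3 can give. For GAPDH the values were 0.54 ± 0.03 and 0.70 ± 0.21 (exact permutation p = 0.4). The part of RNA quality in these differences was not tested.

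**Figure D4:**
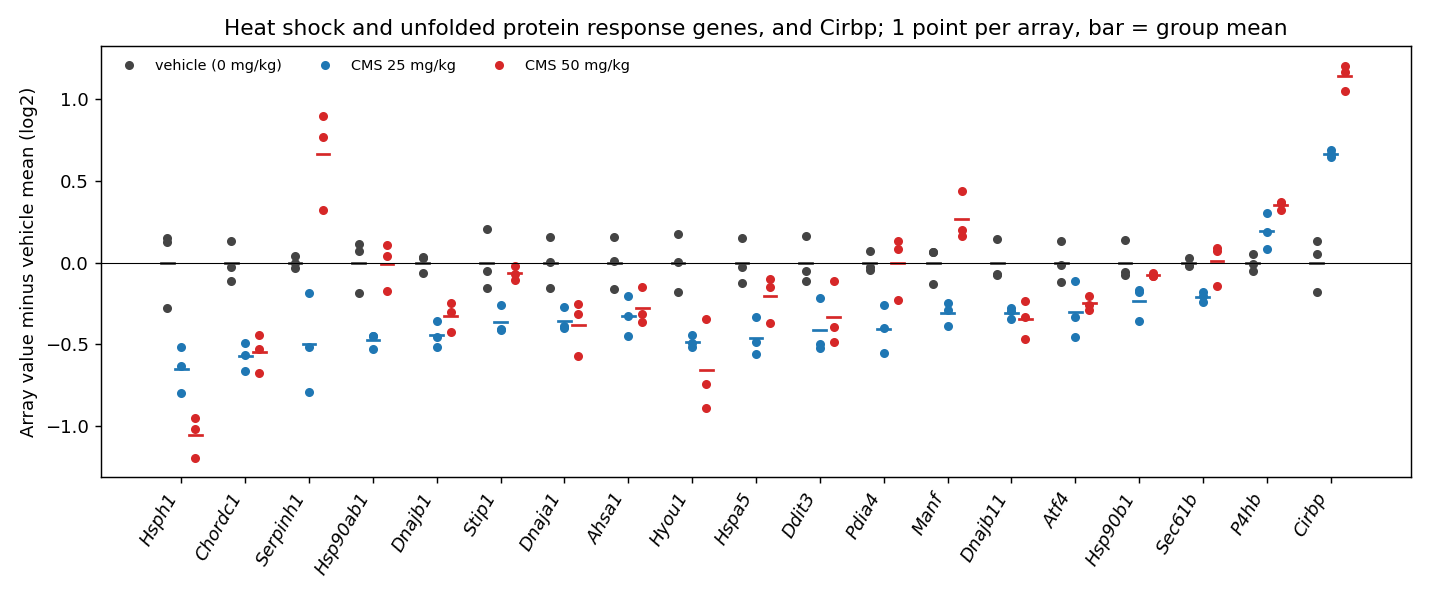
Array value minus the vehicle mean (log2) of the 18 heat shock and unfolded protein response genes with an unadjusted p under 0.05 and of Cirbp, with vehicle in grey, CMS 25 mg/kg in blue and CMS 50 mg/kg in red; points are arrays and bars group means. The blue points of Hsph1 and Chordc1 lie below all grey points, and those of Cirbp lie above them.

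The promoters of the heat shock genes with the smallest p are shown because heat shock factor 1 binds inverted repeats of the pentamer unit. The part of this factor in their values was not tested. The sequences are from RefSeq (GRCr8), 250 bases before to 50 after the annotated start, with matches to GAANNTTC or TTCNNGAA in capitals. Each motif is its own reverse complement, so that both strands are covered, and neighbouring matches may share bases. Hsph1 lies at chr12:10427118-10427417 (plus strand), Chordc1 at chr8:23650571-23650870 (plus strand) and Dnajb1 at chr19:41431092-41431391 (minus strand).
Hsph1: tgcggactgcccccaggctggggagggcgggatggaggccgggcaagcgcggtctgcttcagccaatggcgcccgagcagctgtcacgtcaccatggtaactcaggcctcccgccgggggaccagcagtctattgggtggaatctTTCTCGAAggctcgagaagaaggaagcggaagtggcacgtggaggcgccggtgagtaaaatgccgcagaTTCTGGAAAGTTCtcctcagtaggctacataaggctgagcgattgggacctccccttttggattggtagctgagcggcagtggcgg
Chordc1: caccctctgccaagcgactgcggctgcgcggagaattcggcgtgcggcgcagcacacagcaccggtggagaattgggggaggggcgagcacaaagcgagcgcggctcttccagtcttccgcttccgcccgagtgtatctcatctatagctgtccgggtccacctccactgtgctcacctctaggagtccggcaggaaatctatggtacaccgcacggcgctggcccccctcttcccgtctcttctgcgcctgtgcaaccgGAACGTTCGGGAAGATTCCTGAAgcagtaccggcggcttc
Dnajb1: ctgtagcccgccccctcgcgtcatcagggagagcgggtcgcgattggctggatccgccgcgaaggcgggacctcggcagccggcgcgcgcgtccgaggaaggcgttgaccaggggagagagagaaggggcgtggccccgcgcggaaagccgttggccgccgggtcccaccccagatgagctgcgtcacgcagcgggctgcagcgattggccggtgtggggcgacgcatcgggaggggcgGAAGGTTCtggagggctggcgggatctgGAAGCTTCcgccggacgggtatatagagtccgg
Hsph1 held 3 matches, 2 of which share bases close to the start, Chordc1 held 4 in a single run, and Dnajb1 held 2. Of the 26 measured heat shock genes 22 had a promoter entry, and 16 of the 22 held a match. The share among all 33469 promoters of this length was 15.9%. Since the list was made of heat shock genes, a share above this one was built into it and is no result of these data. Of the 8 members with an unadjusted p under 0.05, 6 held a match, a share close to the 16 of 22 of the list. A match describes the letters and shows no binding.

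Genes of the circadian clock, the loop of transcriptional activators and repressors that gives kidney transcripts a daily rhythm, lay to both sides of vehicle. Of 20 measured members 5 were higher and 3 lower at an unadjusted p under 0.05, where 2.17% and 3.68% of all genes were. None was called, and the median was -0.03. Within 2-fold were 13 of the 20 and within 1.5-fold 8, against 97.8% and 86.7% of all genes. The hour of collection is not given in the sources used here, and its part in the clock gene values was not tested. The list was chosen with earlier results of these data known, and its members were named after their values were seen.

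Dbp, an output gene of the clock that encodes a PAR-domain transcription factor, read 6.50, 6.96 and 6.97 in vehicle and 7.07, 8.90 and 8.51 in treated arrays. Treated replicates 2 and 3 were high and replicate 1 lay just above the vehicle values, and the difference was 1.35 (0.40 to 2.30; adjusted p = 0.751). Nr1d1, the repressor REV-ERB alpha, read 4.53, 5.64 and 5.40 against 5.73, 6.77 and 6.60, a difference of 1.18 (0.42 to 1.94; adjusted p = 0.751). Bhlhe41, the repressor DEC2, differed by 0.88 (0.33 to 1.44), Per3, a period protein, by 0.69 (0.20 to 1.18), and Nr1d2, REV-ERB beta, by 0.46 (0.04 to 0.88).

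Lower values were found for Cry1, a cryptochrome that represses the activators, which read 7.60, 7.12 and 7.14 in vehicle and 6.83, 5.91 and 6.03 in treated arrays. The groups did not overlap, and the difference was -1.04 (-1.56 to -0.51; adjusted p = 0.75). Nfil3, a repressor that opposes Dbp at its sites, differed by -1.02 (-1.80 to -0.23) and Rora, a nuclear receptor that activates Bmal1, by -0.46 (-0.74 to -0.18). Bmal1, the core activator, read 6.62, 6.32 and 6.39 against 6.75, 4.63 and 5.27. Treated replicate 1 was above every vehicle array for Bmal1 while replicates 2 and 3 were below all of them, and the difference of -0.89 (-1.85 to 0.06) included 0.

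Without treated replicate 1, which is also the array with adipose transcripts, 5 clock genes were higher and 6 lower at an unadjusted p under 0.05. The difference of Bmal1 was then -1.49 and that of Cry1 -1.32, both with an adjusted p of 0.16, and that of Dbp 1.89 with an adjusted p of 0.22. For comparison, the 50 mg/kg kidneys differed from the same vehicle arrays by -1.55 for Bmal1 (adjusted p = 0.024), by -0.98 for Cry1 (adjusted p = 0.014) and by 1.08 for Dbp (adjusted p = 0.081, not called).

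**Figure D5:**
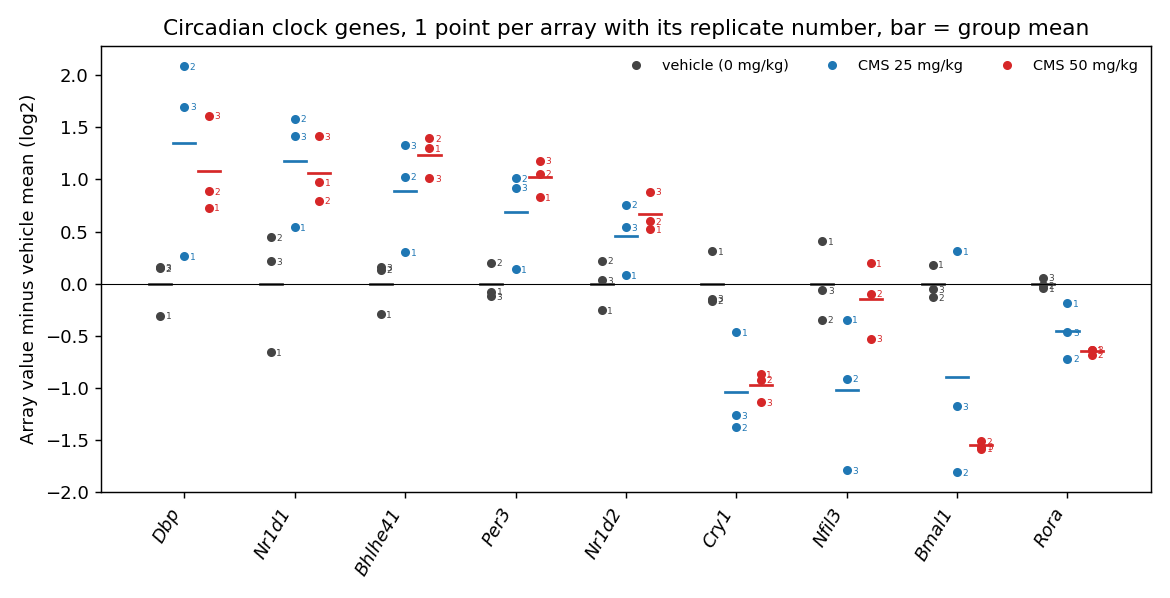
Array value minus the vehicle mean (log2) of 9 circadian clock genes; points are arrays numbered by replicate, with vehicle in grey, CMS 25 mg/kg in blue and CMS 50 mg/kg in red, and bars are group means. For Dbp and Bmal1, blue points 2 and 3 lie away from the grey points and blue point 1 lies near them.

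A few genes had wide intervals, with a large gap between rats of 1 group. Fam111a, a protease with a role in DNA replication, read 9.48, 8.79 and 9.41 in vehicle and 10.29, 3.94 and 4.13 in treated arrays, and 10.05, 6.75 and 9.97 at 50 mg/kg. Its difference of -3.11 was the lowest of all genes, with an interval of -6.61 to 0.40. Dmrtc1c1 read 10.95, 3.82 and 10.38 in vehicle and 10.45, 4.18 and 10.63 in treated arrays, so that each group held 1 low rat, and its interval ran from -5.20 to 5.27. Ephx2, the soluble epoxide hydrolase, read 11.03, 10.55 and 9.91 against 10.16, 6.32 and 9.20, with 1 low treated rat and an interval of -3.92 to 0.04. These genes were singled out after their values were seen.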

How the data were processed

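RNA of the right kidney of 9 rats, 3 per group, was hybridised to 1-colour Affymetrix rat arrays, 1 array per rat. The deposited log2 values are RMA intensities (background-corrected, quantile-normalised and summarised per probe set by the authors with Affymetrix Expression Console, per the submitters' processing notes; no versions are given there), and RMA equalises probe intensities between arrays before it summarises them, so that a shift common to all genes is largely removed. Genes were named from the platform annotation: 20826 probe sets had 1 gene, 436 several and 9780 none; 20758 of the first had a gene ID in the GRCr8 table, and symbols were kept. A gene was read from its brightest probe set and tested where that averaged at least 5 over the 9 arrays. Of the named genes, 30 had another probe set at that level, and for 7 of these 1 had the other sign; none of the 7 is described with values in the text.

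limma 3.58.1 (R 4.3.3) fitted 3 group means to all 9 arrays with a pooled spread, the contrast was 25 mg/kg minus vehicle, and the Benjamini-Hochberg method adjusted p-values across the 10337 genes (threshold 0.05). A gene was placed within 2-fold or 1.5-fold by 2 one-sided tests with the same adjustment. Other settings covered scaling, minimum, probe set rule, variance model, array weights, the 6 arrays alone, a replicate block and each array left out. The code was tested on simulated data. Members and gene lists were chosen with earlier results of these data known; the panel was the rule for named genes, any other gene was named after its values were seen, and lists are described by counts with no set test. The number of arrays limits the precision. Python 3 scripts with scipy ran the exact permutation tests.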

Additional observations from a re-analysis of the deposited data

How the results depend on the processing

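No gene was called under the planned settings or under 1 added after seeing the data, which left out both arrays with transcripts of other tissues (22 alternatives, limma). The smallest adjusted p ran from 0.0666 (Bmpr2, without 50 mg/kg replicate 1) to 0.886, and genes at an unadjusted p under 0.05 numbered 424 to 869. The share within 2-fold ran from 95.3% to 98.1% and that within 1.5-fold from 72.4% to 88.9%, lowest without both arrays. Leaving out 1 of the 6 compared arrays at a time gave 96.6% to 96.8% and 80.3% to 83.6%, below the 97.8% and 86.7% of the main fit. Leaving out 1 of the 50 mg/kg arrays gave 97.7% to 98.1% and 86.4% to 88.3%. With no minimum level the lower share at an unadjusted p under 0.05 was 48.4%, and with a minimum of 6 it was 71.3%. The adipose list's median of 0.72 was -0.03 without 25 mg/kg replicate 1, and Car3 moved from 1.85 to -0.42. Ttr, of the liver list, moved from -0.89 to 0.32 without vehicle replicate 1. Deviations of same-numbered vehicle and 25 mg/kg arrays correlated at 0.13, -0.18 and -0.02 across genes. Those of differently numbered ones correlated at -0.21 to 0.22. Same-numbered arrays were thus no more alike, but 3 pairs are too few to exclude a pairing. With the number as a replicate block 0 genes were called, 602 had an unadjusted p under 0.05 and 10132 were within 2-fold. Probe sets with no gene gave 0 calls among 3709 tested (limma; 313 at an unadjusted p under 0.05).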
